A study of Mus musculus with 21 samples.

Results

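Oxidative stress response genes were followed in the mouse embryonic stem cell line CGR8 as it formed embryoid bodies with or without ascorbic acid (vitamin C). The set holds 10 genes chosen by name and taken in all groups through the array's annotation, Nqo1, Hmox1, Gclc, Gclm, Gsr, Txnrd1, Srxn1, Slc7a11, Fth1 and Prdx1, out of 18193 genes measured. They are covered by 24 probe sets, the groups of short oligonucleotides by which an Affymetrix array reads a transcript. Of these, 19 belong to 9 of the genes alone, and the 5 probe sets of Prdx1 are annotated to both Prdx1 and Gm21399.

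The 21 arrays form 7 groups of 3 biological replicates. Stem cells before differentiation (day 0, in 10% GMEM) form 1 group, and embryoid bodies kept in 20% medium form control and treated groups on days 2, 3 and 5, the treated ones with ascorbic acid at 100 µM. Aggregates were started as hanging drops of 500 cells in 25 µL, and from day 2 they were shaken; all groups come from the same line. The submitters carried forward only cultures with more beating aggregates under ascorbic acid at later stages, so the treated and control arrays are a selected set, and the comparison asks what differs early in such cultures.

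The antioxidant response is a set of genes under the transcription factor NRF2 (encoded by Nfe2l2), which KEAP1 holds at a low level until oxidants or electrophiles modify it. NRF2 then pairs with small MAF proteins on antioxidant response elements, sites that the repressor BACH1 can also occupy. The target genes make and recycle glutathione and thioredoxin, reduce quinones, degrade heme and store iron. Ascorbic acid is itself a reductant and a cofactor of iron-dependent dioxygenases.

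The promoters of 4 of the genes are shown, that of Nqo1, the member with the largest treated difference, and 3 that hold antioxidant-type motifs. These are not opposed cases, since Gclm, 1 of the 3, was also higher with treatment on day 5. Each window is 300 bases of RefSeq on GRCm38.p6, from 250 before to 50 after the annotated start, on the strand of the gene. Capitals mark matches on either strand to the core of the antioxidant response element (TGACNNNGC), the AP-1 site (TGANTCA) or the TATA box (TATAAA).
Nqo1, chr8:107403156-107403455, minus strand: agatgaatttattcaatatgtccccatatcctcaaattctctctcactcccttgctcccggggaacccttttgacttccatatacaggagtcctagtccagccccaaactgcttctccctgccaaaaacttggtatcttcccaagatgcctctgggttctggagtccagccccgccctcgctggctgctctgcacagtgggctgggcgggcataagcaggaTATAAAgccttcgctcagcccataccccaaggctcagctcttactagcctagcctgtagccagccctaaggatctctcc
Gclm, chr3:122245307-122245606, plus strand: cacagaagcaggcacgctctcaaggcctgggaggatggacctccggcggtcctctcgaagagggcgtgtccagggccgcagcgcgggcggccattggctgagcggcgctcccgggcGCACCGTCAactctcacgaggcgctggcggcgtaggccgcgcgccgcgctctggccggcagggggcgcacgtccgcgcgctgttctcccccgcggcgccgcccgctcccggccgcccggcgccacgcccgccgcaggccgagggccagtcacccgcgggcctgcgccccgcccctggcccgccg
Srxn1, chr2:152105274-152105573, plus strand: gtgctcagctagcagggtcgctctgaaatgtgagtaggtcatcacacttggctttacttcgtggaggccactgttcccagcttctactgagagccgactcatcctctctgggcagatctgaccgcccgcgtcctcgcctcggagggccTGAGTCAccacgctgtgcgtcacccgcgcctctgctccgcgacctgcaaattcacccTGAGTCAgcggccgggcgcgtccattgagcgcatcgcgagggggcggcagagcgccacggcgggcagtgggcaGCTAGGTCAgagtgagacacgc
Prdx1, chr4:116685349-116685648, plus strand: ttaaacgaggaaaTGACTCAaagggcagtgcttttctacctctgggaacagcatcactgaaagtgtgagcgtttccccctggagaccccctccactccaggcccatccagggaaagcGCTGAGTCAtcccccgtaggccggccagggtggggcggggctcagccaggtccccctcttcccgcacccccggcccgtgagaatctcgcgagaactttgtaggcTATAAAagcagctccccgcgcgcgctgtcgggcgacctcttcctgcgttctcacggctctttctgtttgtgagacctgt

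Windows were matched for 7 of the 10 genes. The antioxidant core was present in 4 of them, Gclm (134 bases before the start), Prdx1 (133 before), Txnrd1 (92 before, in 1 of its 3 windows, chr10:82858956-82859255) and Srxn1 (29 after). Of all 32851 promoter windows of this length, 12.4% held that core, so a match by itself is common. In Prdx1 the core shared bases with an AP-1 site at 131 before the start, an overlap found in 0.454% of windows. Srxn1 held AP-1 sites 102 and 45 bases before its start, and Prdx1 held a further one 237 before; 7.81% of windows held the AP-1 letters. A TATA box stood 29 bases before the starts of Nqo1 and Prdx1 and, on the opposite strand, 124 before the start in 1 of the 2 Fth1 windows (chr19:9980350-9980649), against 13.6% of windows. Matches describe letters in these windows and do not show binding. Sites outside the windows were not searched, so a gene without a match here may have one elsewhere.

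Levels are given as log2 signals, on which a step of 1 is a doubling. All 21 arrays had medians between 6.05 and 6.19, and no 2 arrays were identical among 210 pairs. Replicate 1 of day 0 correlated with its own group at only 0.966 to 0.969, and replicate 3 of day 3 stood apart in both arms, with first principal component scores of -18.3 and -18.9. Replicate 3 of day 2 also scored lowest in both arms, at -38.9 against -29.2 and -25.6 in controls. With treatment it scored -40.5, against -33.1 and -33.4. The stem cell markers Pou5f1, Nanog, Sox2 and Zfp42 were at 11.76, 11.48, 12.31 and 11.76 on day 0 and at 6.51, 5.90, 7.27 and 5.02 in day 5 controls. The macrophage list, whose cells carry much Hmox1, averaged 5.55 to 6.06 over all arrays, with Ptprc at 3.69 to 3.93 by group; 1 of its 5 genes, Cd68, was called lower from day 0 to day 2 and to day 5. In such bulk RNA, a change in the share of a cell type and a change in RNA per cell cannot be told apart.

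On day 2, embryoid bodies given ascorbic acid held more Nqo1, Gsr and Fth1 transcript than the control bodies of the same replicate number, by calls of the paired fit described next. The largest of these differences was 1.12 for Nqo1 (2.18-fold), followed by 0.52 for Gsr (1.43-fold) and 0.30 for Fth1 (1.23-fold). By day 3 no member differed by a call, and on day 5 Gclm alone did, 0.47 higher with treatment. The direction was shared more widely than the calls, since 8 of 9 members had a positive mean difference on day 2. The median member differed by 0.31 on day 2, 0.13 on day 3 and 0.17 on day 5, against -0.01, 0.01 and 0.01 over all genes.

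These calls rest on how the arrays are compared. In limma's fit of 7 group means, with Benjamini-Hochberg adjustment over 18193 genes, 0 of 9 members passed an adjusted p of 0.05 on day 2, day 3, day 5 or on average over days. The same fit called 0.0055%, 0%, 0.0605% and 0.0275% of all genes in these 4 comparisons, and put 1341, 269, 590 and 877 genes at an unadjusted p under 0.05. When each treated array was set against the control array of its day and number, as 9 pairs, 3 members were called on day 2, 0 on day 3, 1 on day 5 and 5 on average. The share of all genes called was then 2.64% on day 2, 0.198% on day 3, 0.956% on day 5 and 1.94% on average. These members' calls were all in the higher direction, in which the paired fit called 2.11% of all genes on day 2, 0.781% on day 5 and 1.45% on average.

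Within pairs, 6 of 9 members were higher with treatment in all 3 pairs of day 2, 5 in those of day 3 and 6 in those of day 5. Over all genes, 16.6%, 15.5% and 13.3% were higher in all 3 pairs on these days. Gclm, Txnrd1 and Fth1 were higher in all 9 pairs, a pattern shown by 0.973% of genes. Nqo1 alone among the members was lower in all 3 pairs of a day, on day 5, as were 10.9% of genes.

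**Figure D1:**
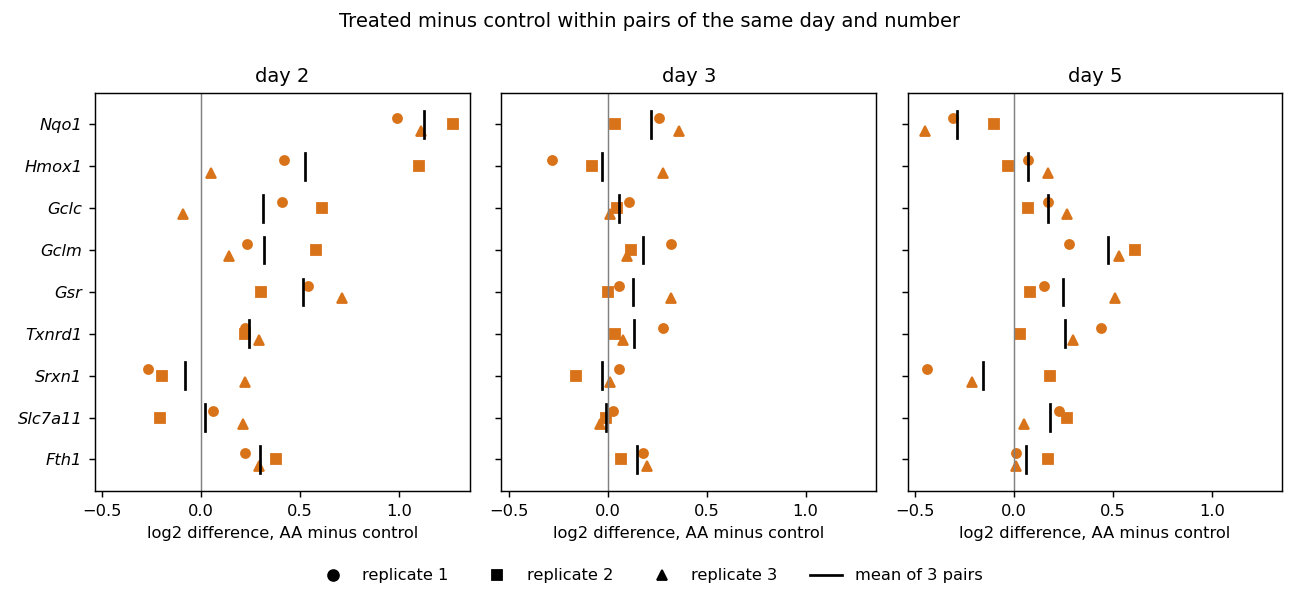
Differences in log2 signal between treated and control arrays of the same replicate number (horizontal axis) for the 9 members with their own probe sets (vertical axis), on days 2, 3 and 5; symbols are the 3 pairs and black bars their means. Nqo1 lies at 0.99 to 1.27 in the 3 pairs of day 2 and below 0 in the 3 pairs of day 5, while Gclm, Txnrd1 and Fth1 lie above 0 in all 9 pairs.

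Other measures were also set side by side for the 2 arms, and some of their ranges overlapped. On day 2 the gap between the 3′ and 5′ control probe sets of Actb, a sign of RNA integrity, was 0.94 to 1.40 in controls and 0.91 to 1.08 in treated arrays, and for Gapdh it was 0.17 to 0.63 and 0.11 to 0.21. By replicate number, the Actb gap of day 2 was 1.22, 1.40 and 0.94 in controls and 0.91, 1.08 and 0.91 in treated arrays. It was larger in the control of every pair. The pluripotency list averaged 8.86 to 8.95 and 8.83 to 8.89 on that day. The paired fit called 1 gene lower with treatment on day 2 in each of 4 marker lists, Klf4 (-0.68) of the 7 pluripotency genes, Eomes (-0.62) of 6 mesoderm genes, Vim (-0.63) of 5 fibroblast genes and Nes (-0.40) of 3 neural genes. That fit called 98 of all 18193 genes lower on day 2. Some other genes of the pluripotency, mesoderm and fibroblast lists were higher with treatment on average. On day 5 the primitive blood list averaged 6.62 to 7.68 in controls and 7.73 to 9.20 in treated arrays. In the paired fit 5 of its 6 genes were called higher, against 0.781% of all genes. Its member Hbb-bh1, an embryonic globin, was at 9.66 ± 1.70 (SD, n = 3) and 12.42 ± 1.27. The part of these measures in the members' differences was not tested.

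Without treatment, 4 of the 9 members fell late. Between days 3 and 5 Nqo1, Gclm, Gsr and Txnrd1 fell and Fth1 rose, 5 of 9 members against 18.3% of all genes. Between days 0 and 5 Nqo1, Hmox1, Gclm and Gsr fell and Fth1 rose, 5 of 9 against 29.9% of genes. The first step, day 0 to day 2, raised Gclm and Txnrd1 (2 of 9, against 11.8% of genes), and from day 2 to day 3 no member was called (5.81% of genes). The median member differed by 0.27, -0.20 and -0.42 over the 3 successive steps, against 0.03, -0.03 and -0.03 over all genes. Successive steps share a control group, so a high or low group moves both steps that use it.

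**Figure D2:**
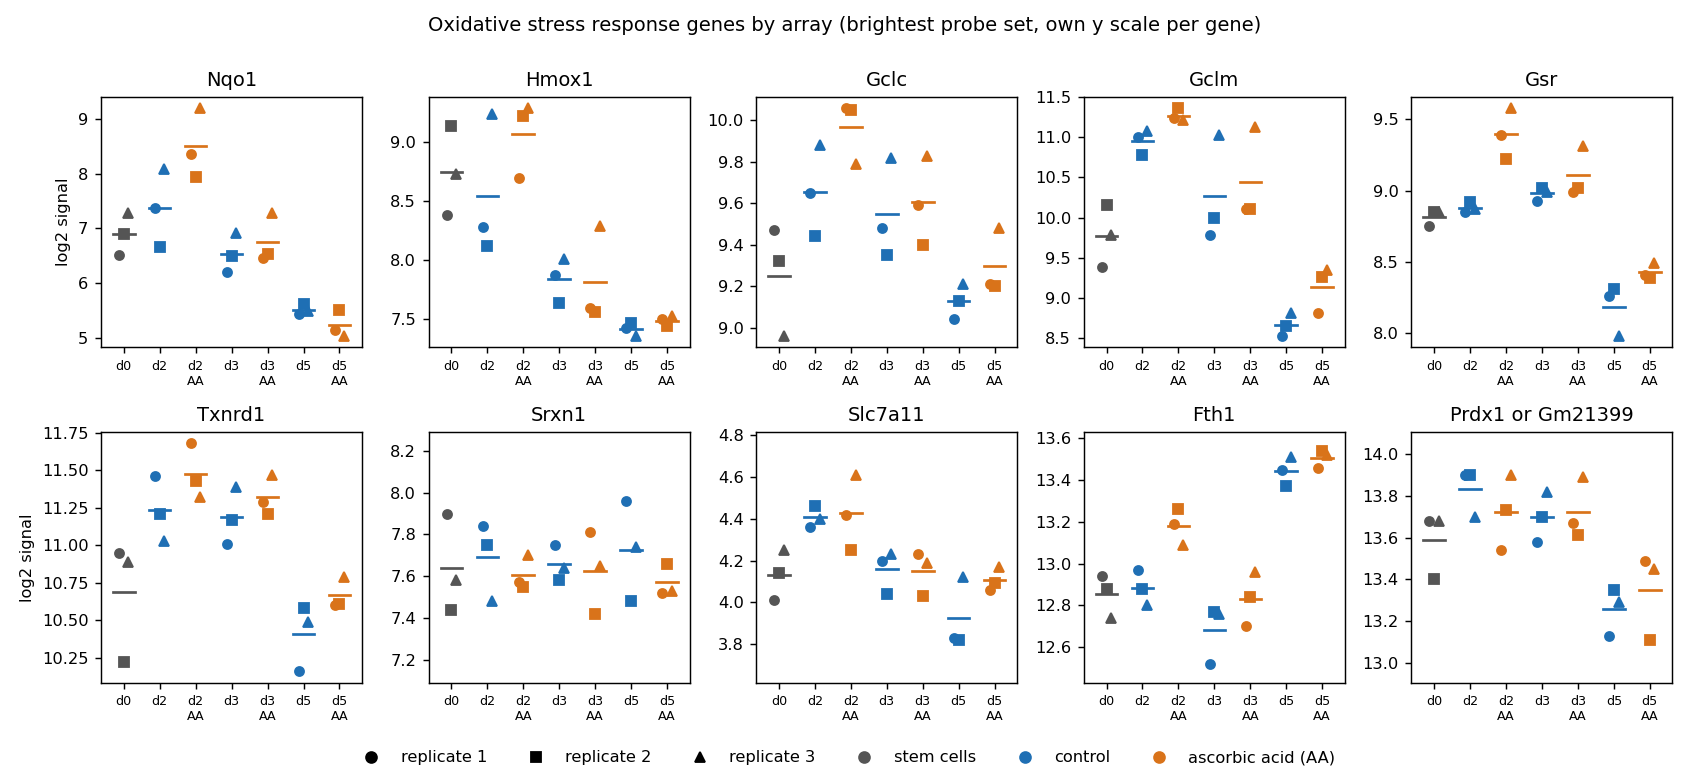
Log2 signal (vertical axis, own scale per gene) on each of the 21 arrays, by group in order of day, with AA for ascorbic acid; symbols are replicate numbers and bars are group means. The last panel is the brightest probe set annotated to both Prdx1 and Gm21399. Nqo1, Hmox1, Gclm and Gsr sit lower on day 5 than on day 0, and Fth1 sits higher.

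Nqo1 encodes NAD(P)H quinone dehydrogenase, which reduces quinones by a pair of electrons and is a standard reporter of NRF2 activity. It is read by 1 probe set (1423627_at), and its mean of 6.68 lies at percentile 44.7 of all genes. On day 2, replicates 1, 2 and 3 gave 7.37, 6.66 and 8.09 in controls and 8.36, 7.93 and 9.20 with ascorbic acid. The groups overlapped, because control replicate 3 was above treated replicate 2, yet each treated array exceeded the control of its own number, by 0.99, 1.27 and 1.11. The mean difference was 1.12 ± 0.33 (SE) in the unpaired fit, with adjusted p = 0.479, and 1.12 ± 0.12 in the paired limma fit, with adjusted p = 9.23e-05. Leaving out any 1 pair of day 2 kept it between 1.05 and 1.19, with adjusted p from 0.000538 to 0.00137 in the paired fit.

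The treated difference in Nqo1 did not last. On day 3 the controls gave 6.2, 6.49 and 6.92 and the treated arrays 6.46, 6.53 and 7.28, a difference of 0.22 with adjusted p = 0.996 in the paired limma fit. On day 5 the controls gave 5.44, 5.61 and 5.48 and the treated arrays 5.13, 5.51 and 5.03, with differences of -0.31, -0.10 and -0.45. That day 5 mean difference of -0.29 ± 0.12 was not called (adjusted p = 0.5, paired fit). The change of the treated difference with day was called in the paired fit (limma's F test, adjusted p = 0.00234, against 0.511% of all genes called) and not in the unpaired one (adjusted p = 1, unadjusted 0.0208), where 0.0055% of genes were called and 492 had an unadjusted p under 0.05. Nqo1 was the only member called by that test.

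Without treatment Nqo1 ran at 6.51, 6.89 and 7.28 on day 0, highest on average in the day 2 controls (7.37 ± 0.72, SD, n = 3) and lowest on day 5 (5.51 ± 0.09). It fell by 1.38 from day 0 to day 5 (adjusted p = 0.00267, limma), with no overlap of the arrays. The fall of 1.03 from day 3 to day 5 had adjusted p = 0.0331, which was 0.0632 to 0.161 without any 1 of replicates 2 and 3 of day 3 and the 3 replicates of day 5. The step from day 2 to day 3 was -0.84 (adjusted p = 0.147), and -1.19 with adjusted p = 0.0454 without day 2 control replicate 2. In the order of its 7 group means, the only neighbours whose arrays did not overlap were the day 3 and day 5 controls.

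Hmox1 encodes heme oxygenase 1, which degrades heme to biliverdin, iron and carbon monoxide, and it too has 1 probe set (1448239_at). Day 0 gave 8.38, 9.14 and 8.73, and day 5 controls gave 7.43, 7.47 and 7.36. The fall of 1.33 (adjusted p = 0.000338, limma) was the call for this gene, and its steps between were -0.20, -0.70 and -0.42, none called. On day 2 the treated arrays gave 8.70, 9.22 and 9.29 against 8.28, 8.12 and 9.24 in controls. Replicate 3 of the controls was high, and its pair differed by 0.05 while the others differed by 0.42 and 1.10. The mean of 0.52 had adjusted p = 0.0809 in the paired fit, and without the pair of replicate 1, 2 or 3 it was 0.57, 0.23 or 0.76, with adjusted p = 0.228, 0.588 or 0.0136. Cd68, a macrophage gene, read 6.0, 5.77 and 7.26 in the same controls and 6.3, 6.35 and 7.25 with treatment, high in replicate 3 of both arms. None of the other genes of the macrophage list was highest in replicate 3 of these controls. Cd68 fell by 1.79 from day 0 to day 5 (adjusted p = 9.23e-05, limma), alone among the genes of its list in being called. Its part in the course of Hmox1 was not tested. On days 3 and 5 the treated difference was -0.03 and 0.07.

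Gclm and Gclc encode the modifier and catalytic subunits of glutamate-cysteine ligase, the first and rate-limiting enzyme of glutathione synthesis. The brightest Gclm probe set (1418627_at) read 9.39, 10.15 and 9.78 on day 0, 11.00, 10.78 and 11.07 in day 2 controls, 9.78, 9.99 and 11.03 on day 3 and 8.53, 8.65 and 8.82 on day 5. It rose by 1.18 to day 2 (2.26-fold, adjusted p = 0.00912) and fell by 1.60 from day 3 to day 5 (3.03-fold, adjusted p = 0.000345, limma), ending 1.11 below day 0 (adjusted p = 0.00459). Replicate 3 of day 3, which stands apart in both arms, was about as high as the day 2 arrays. Without it in both arms the step from day 2 to day 3 was -1.06 with adjusted p = 0.00241, against -0.68 and 0.171 with it.

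With ascorbic acid Gclm read 11.23, 11.36 and 11.21 on day 2, 10.10, 10.11 and 11.13 on day 3 and 8.81, 9.26 and 9.35 on day 5. All 3 treated arrays of day 2 were above all 3 controls, as for 6.73% of genes. On day 5 treated replicate 1 (8.81) fell just under control replicate 3 (8.82). The day 5 difference of 0.47 ± 0.10 had adjusted p = 0.0236 in the paired limma fit, and 0.0547 to 0.189 when any 1 pair of that day was left out. The average over days, 0.32, had adjusted p = 0.00486 in the paired fit and 0.00279 to 0.0285 without any 1 pair. The other probe set of Gclm (1439050_at) gave an average of 0.49 with adjusted p = 0.0268 over all probe sets.

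Gclc moved less. Its brightest probe set (1455959_s_at) read 9.47, 9.32 and 8.96 on day 0, 9.65, 9.44 and 9.88 in day 2 controls and 9.04, 9.13 and 9.21 in day 5 controls, and none of its steps was called. The other probe set (1424296_at) fell by 0.69 from day 3 to day 5 (adjusted p = 0.0105 over all probe sets, limma), where the brightest gave -0.42 and adjusted p = 0.0731. On day 2 the treated arrays gave 10.06, 10.05 and 9.79, higher than their controls in pairs 1 and 2 and lower in pair 3. The mean difference was 0.31 (adjusted p = 0.152, paired fit), and without pair 1, 2 or 3 it was 0.26, 0.16 or 0.51, with adjusted p = 0.459, 0.677 or 0.00946.

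Gsr encodes glutathione reductase, which returns oxidised glutathione to its reduced form with NADPH. Its brightest probe set (1421817_at) gave tight controls of 8.85, 8.92 and 8.87 on day 2 and treated values of 9.39, 9.22 and 9.58, with no overlap. The difference of 0.52 ± 0.12 had an unadjusted p of 0.000327 and adjusted p = 0.313 in the unpaired limma fit, and adjusted p = 0.0212 in the paired fit. It was lost from the paired calls without pair 1 (adjusted p = 0.146) or pair 3 (0.0577), and after quantile normalisation was applied again (0.38, adjusted p = 0.105). The other probe set (1421816_at) differed more, 0.78 with adjusted p = 0.0027 over all probe sets in the paired fit, from 8.69, 8.37 and 8.84 in controls and 9.47, 9.27 and 9.49 with treatment.

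In controls the brightest Gsr probe set was level through day 3, at 8.82, 8.88 and 8.98 on average. It then fell by 0.80 to 8.18 on day 5 (1.74-fold, adjusted p = 6.42e-05, limma). Treated arrays were 9.11 on day 3 and 8.43 on day 5, differences of 0.13 and 0.25 that were not called (adjusted p = 0.996 and 0.608, paired fit). On average over days Gsr was 0.30 higher with treatment (adjusted p = 0.0224, paired fit), a call lost in 4 of the 9 fits that left out 1 pair. The other probe set (1421816_at) averaged 8.91, 8.63 and 9.03 in controls of days 0, 2 and 3, and 8.22 on day 5. Its larger treated difference on day 2 was set against that lower control mean of 8.63.

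Slc7a11 encodes the cystine-importing chain of the xc- exchanger, which feeds cysteine to glutathione. Its mean of 4.19 lies at percentile 7.3 of genes, near the bottom of the array's range, and its group means ran only from 3.92 in day 5 controls to 4.43 in treated day 2 arrays. Its other probe set averaged 4.01, and no comparison of the gene was called with all arrays in the unpaired or the paired fit, so a level close to background limits what these arrays can show for it.

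Txnrd1 encodes the cytosolic thioredoxin reductase, a selenoenzyme that keeps thioredoxin reduced. Its brightest probe set (1421529_a_at) was among the highest signals on the array (mean 11.0, percentile 96.7). Controls gave 10.95, 10.22 and 10.89 on day 0, 11.46, 11.21 and 11.03 on day 2, 11.01, 11.17 and 11.39 on day 3 and 10.16, 10.58 and 10.49 on day 5. It fell by 0.78 from day 3 to day 5 (1.72-fold, adjusted p = 0.00246, limma). The rise of 0.55 to day 2 had adjusted p = 0.0412 and rested partly on day 0 replicate 2, without which it was 0.31 with adjusted p = 0.282. Leaving out day 2 control replicate 1 or 2 gave adjusted p = 0.183 and 0.0827, and fitting only the groups compared gave 0.269. Averages of the other probe sets also rose from day 0 to day 2 controls, from 7.67 to 8.71 (1424486_a_at) and from 7.11 to 7.75 (1424487_x_at).

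Treated values of Txnrd1 were 11.68, 11.43 and 11.32 on day 2, 11.29, 11.21 and 11.47 on day 3 and 10.60, 10.61 and 10.79 on day 5. Each was above the control of its own number, by 0.24, 0.13 and 0.26 on average on the 3 days. The average of 0.21 had adjusted p = 0.0283 in the paired limma fit, lost in 6 of the 9 fits that left out 1 pair. The other probe sets of Txnrd1 (1424486_a_at and 1424487_x_at) gave -0.05 and -0.09 on day 2, so the direction there depends on the probe set.

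Srxn1 encodes sulfiredoxin, which repairs over-oxidised peroxiredoxins, and its 4 probe sets differed in their course. The brightest (1419942_at), which stands for the gene in the fit, was flat, with group means from 7.57 to 7.73. Probe set 1426875_s_at gave 6.98, 6.88 and 7.05 in day 2 controls and 7.67, 7.49 and 7.63 with ascorbic acid, with no overlap. That difference of 0.63 had adjusted p = 0.583 in the unpaired fit over all probe sets and 0.0327 in the paired fit. The same probe set read 7.0, 7.56 and 7.52 on day 0 and 6.40, 6.05 and 6.05 in day 5 controls, a fall of 1.19 (adjusted p = 1.64e-05, limma). Probe sets 1451680_at and 1425351_at gave 0.20 and 0.36 on day 2, neither called, and the brightest gave -0.08. All but the brightest, 3 of the 4, were higher with treatment in all 3 pairs of day 2.

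Prdx1 encodes a peroxiredoxin that reduces hydrogen peroxide with thioredoxin. Its 5 probe sets, each annotated to Gm21399 as well, had means from 11.4 to 13.6 and cannot be given to either gene alone. The brightest (1434731_x_at) read 13.68, 13.40 and 13.68 on day 0 and 13.13, 13.35 and 13.29 in day 5 controls. From day 3 to day 5, 4 of the 5 fell by 0.31 to 0.48, with adjusted p from 0.000626 to 0.0419 over all probe sets (limma). With ascorbic acid none was called on any day, and the differences ran from -0.23 to 0.09.

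Fth1 encodes the ferritin heavy chain, the ferroxidase subunit of the iron store, and was the brightest member (mean 13.05, percentile 99.7). It was the only member called higher on day 5 than on day 0 in the controls, from 12.94, 12.88 and 12.74 on day 0 to 13.45, 13.37 and 13.51 on day 5, by 0.59 (1.51-fold, adjusted p = 1.39e-05, limma). The rise came after day 3, when controls read 12.52, 12.77 and 12.76 (0.76, adjusted p = 1.54e-06). The second probe set also fell by 0.49 from day 2 to day 3 (adjusted p = 0.0134 over all probe sets), where the brightest gave -0.20.

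On day 2 Fth1 read 12.97, 12.88 and 12.80 in controls and 13.19, 13.26 and 13.09 with ascorbic acid, without overlap. The difference of 0.30 ± 0.06 had adjusted p = 0.0110 in the paired limma fit and 0.479 in the unpaired one (SE 0.083). The second probe set (1448771_a_at) gave 0.16 (adjusted p = 0.225 over all probe sets, paired fit). Without pair 1 or pair 2 the paired adjusted p of the brightest was 0.0570 or 0.0766. On days 3 and 5 the differences were 0.15 and 0.06, and the average of 0.17 was called in the paired fit (adjusted p = 0.0107), a call lost without the pair of day 3 replicate 3.

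**Figure D3:**
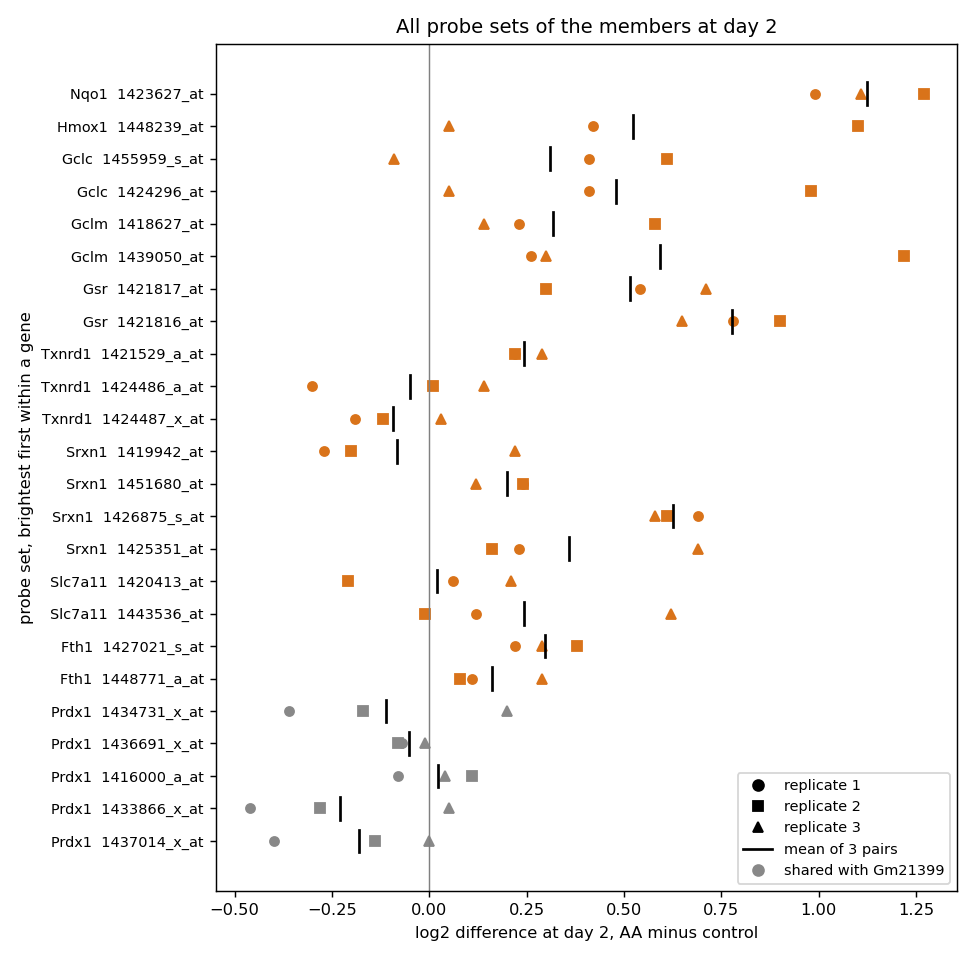
Differences in log2 signal between treated and control arrays of day 2 (horizontal axis) for all 24 probe sets (vertical axis); symbols are the 3 pairs, black bars their means, and grey marks the 5 probe sets shared with Gm21399. Of the 19 probe sets of single members, 13 lie above 0 in all 3 pairs. The mean bars of the Txnrd1 and Srxn1 probe sets lie on both sides of 0, and single pairs of Gclc and Slc7a11 also lie below 0.

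Counted by probe set, 13 of the 19 that belong to single members were higher in all 3 pairs of day 2, 7 on day 3 and 11 on day 5, as were 14.8%, 13.9% and 12.2% of all probe sets. In the paired limma fit over 45037 probe sets, 5 of 19 were called on day 2 (1.64% of all probe sets), 0 on day 3 (0.091%), 1 on day 5 (0.615%) and 7 on average over days (1.06%). In the unpaired fit 0 of 19 were called in each of these comparisons, where 0.00444%, 0.00222%, 0.0688% and 0.0155% of all probe sets were. Probe sets of a gene share its RNA and are not replicates.

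The other genes of the pathway, 60 genes in 7 lists of which 56 were measured, were likewise called in the higher direction alone on day 2. In the paired fit 8 of 56 were higher with ascorbic acid on day 2 and none lower, and in the unpaired fit 0 of 56 were called. Over all genes the paired fit called 383 higher (2.11%) and 98 lower, so most calls of that day were in the higher direction. The list median was 0.15, with 44 of 56 positive. Ugdh, which makes UDP-glucuronate for conjugation, read 8.96, 8.61 and 9.28 in controls and 9.76, 9.53 and 9.94 with treatment (0.79, adjusted p = 0.000203 in the paired limma fit). Cbr3, a carbonyl reductase that acts on quinones, read 10.12, 9.69 and 9.81 against 10.78, 10.65 and 10.66 (0.82, adjusted p = 0.00146). In both genes all treated arrays were above all controls.

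Of the glutathione list, 3 of 14 were called higher on day 2 in the paired fit. Gpx4, which reduces lipid hydroperoxides, differed by 0.74 (adjusted p = 0.00579, limma), and its day 2 controls were widely spread, at 10.62, 10.37 and 11.80. Glrx3, a cytosolic glutaredoxin, differed by 0.58, and Cth, which makes cysteine from cystathionine, by 0.63. Prdx3, the mitochondrial peroxiredoxin, was called on day 2 (0.47) and day 5 (0.52), and Cth on day 5 as well (0.77). Blvrb, a biliverdin reductase of the iron and heme list, differed by 0.44 on day 2. Genes for superoxide and peroxide removal (0 of 4) and NADPH supply (0 of 5) were not called in any treatment comparison, where the paired fit called 0.198% to 2.64% of all genes.

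Of the regulators, 1 of 10 was called with treatment on day 2 in the paired fit, against 2.64% of all genes. On day 2 Nfe2l2, Keap1 and Bach1 differed by -0.03, -0.07 and 0.02 between treated and control arrays, and none was called on any day. Mafg, a small MAF partner of NRF2, was the regulator called, higher by 0.40 on day 2 (adjusted p = 0.0385, paired limma fit). These are transcript levels, and NRF2 is set largely by protein turnover, which arrays do not read. In controls Nfe2l2 was at 9.78 ± 0.49 on day 0 and 9.66 ± 0.18 on day 5, whereas Keap1 rose from 7.97 ± 0.20 to 8.84 ± 0.15 (0.87, adjusted p = 1.37e-05).

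From day 0 to day 5 the pathway split, with 12 of 56 genes higher and 17 lower in controls, against 15.9% and 14% of all genes. Falling genes included Cth (-3.78), Abcc4, an exporter of conjugates (-3.60), Cbr3 (-3.19), Sod2, the mitochondrial superoxide dismutase (-1.41), and Slc3a2, the heavy chain that pairs with Slc7a11 (-1.34). Rising genes included Gpx8 (2.76) and Prdx4 (1.74), peroxidases of the endoplasmic reticulum, Ugdh (2.69) and Prdx2 (1.04). The peroxidase genes thus went both ways, with Gpx4 lower (-0.95) and Gpx7 lower (-0.60).

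**Figure D4:**
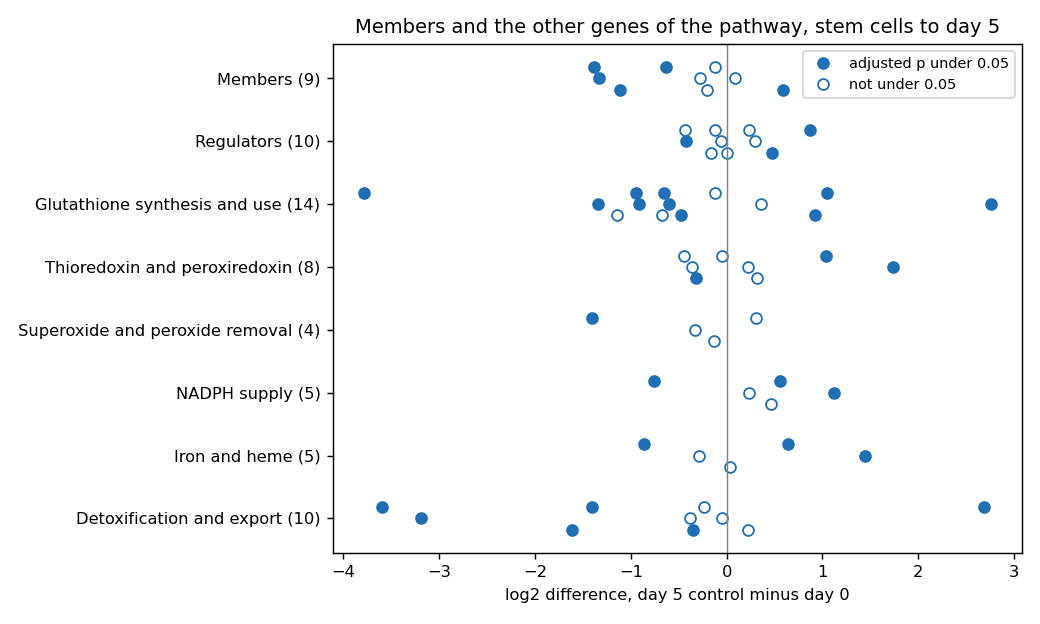
Difference in log2 signal between day 5 controls and day 0 (horizontal axis) for each gene of the members and of the 7 pathway lists (vertical axis, with the number measured); filled points had adjusted p under 0.05 in limma's unpaired fit. Each of the larger lists holds genes on both sides of 0, from Cth at -3.78 to Gpx8 at 2.76.

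Across the 21 arrays, which share their culture stages, several members tracked each other. Pearson's r was 0.869 between Gclm and Gsr, 0.868 between Nqo1 and Gclm and 0.867 between Nqo1 and Hmox1, and -0.435 between Nqo1 and Fth1. After group means were taken out, r was 0.301, 0.514 and 0.664 for the first 3 of these and -0.092 for Nqo1 and Fth1, and over all pairs of members it ran from -0.41 to 0.664. Of 15266 other genes with a mean above 5, Acacb (0.961), Alkbh1 (0.956), Hadhb (0.954), Exosc1 (0.949) and 4930447C04Rik (0.947) were most like Nqo1. For Hmox1 they were Pnma5 (0.965), Tex19.1 (0.954), Twf2 (0.953), Mrps24 (0.951) and Stoml1 (0.948), and for Slc7a11, with its low signal, Faap24 (0.871), Cass4 (0.854), Txn2 (0.851), Them6 (0.848) and Surf2 (0.837). Ranking by Spearman's rho kept 1, 0 and 3 of these 5 for Nqo1, Hmox1 and Slc7a11.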

How the data were processed

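Total RNA (100 ng a sample) was labelled with biotin and hybridised to Affymetrix mouse arrays, per the labels' protocols. The deposited values are log2 signals made by RMA, per the submitters' processing notes, with no version in the sources used here. Of 45101 probe sets, 34945 carried 1 gene symbol, 932 several and 9160 none, and 64 AFFX controls were left out; 34741 matched RefSeq by Entrez number, and 0 symbols changed. The brightest probe set over all arrays stood for each gene, and all probe sets were fitted separately. limma 3.58.1 (R 4.3.3; trended empirical Bayes) fitted 7 group means, with calls at an adjusted p under 0.05 over 18193 genes.

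Same-numbered treated and control arrays deviated together in 9 of 9 pairs (r 0.178 to 0.679, against -0.509 to 0.088 for other numbers; preset limit 0.1), so the paired fit (18 arrays, 9 pairs) is printed where it changes a call. Deviations within a group cancel out, so the values for other numbers fall as those for same numbers rise and are not separate evidence. The pairing was also judged from the values that the paired fit then tests. Nothing gives the source of the replicates beyond the words "biological replicate", so p-values measure the spread between these samples. With simulated day 2 data for 18193 genes, with 0.5 of the variance shared within pairs, the paired fit recovered 72% of 1.5-fold and 96% of 2-fold changes; with 0 shared it recovered 32% and 90%. The unpaired fit recovered 56% and 94% with 0.5 shared, and 56% and 96% with 0 shared. On day 2 the paired fit made 10 false calls with 0.5 shared and 11 with 0 shared, and the unpaired fit made 0 and 5. The day 2 pairs correlated at 0.178, 0.224 and 0.302.

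Members, named genes, gene lists and alternatives were chosen with earlier results of these data known. Named genes beyond the members are Nfe2l2, Keap1, Bach1, 4 stem cell markers, per list the called genes with the smallest p (at most 4 in a comparison), Hbb-bh1 and Ptprc as defining markers, Cd68, Klf4, Eomes, Vim and Nes (chosen after their values were seen), and the 5 genes most like Nqo1, Hmox1 and Slc7a11. Prdx5, Prdx6, G6pdx and Ftl1 of the lists had no probe set of their own. The number of arrays limits precision.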

Additional observations from a re-analysis of the deposited data

Results flagged for a closer look

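The treated difference in Nqo1 changed with day in the paired limma fit (F test, adjusted p = 0.00234), from 1.12 on day 2 to 0.22 on day 3 and -0.29 on day 5. It was positive in all 3 pairs of day 2 and of day 3 and negative in all 3 pairs of day 5; the F test covers the 3 days together, and no single pair of days was tested. The call was kept in each of the 9 fits that left out 1 pair.

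Ugdh also changed with day (F test, adjusted p = 0.00876, paired limma fit; 1 unpaired), from 0.79 on day 2 to -0.07 on day 5. No formal outlier test was made in groups of 3 arrays.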

How the results depend on the processing

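Members called without pairing (0 on day 2, day 3, day 5, on average and for the change with day) became 3, 0, 1, 5 and 1 with the 9 pairs as a replicate block, and 5, 0, 1, 7 and 1 of 19 over probe sets. Applying quantile normalisation again with the block gave 2, 0, 1, 4 and 1. Leaving out 1 pair gave 1 to 5 on day 2, 0 on day 5, 2 to 6 on average and 1 for the change with day; leaving out 1 array of the unpaired fit gave 0. With the replicate number over all days as the block, no treated difference of a member was called (Nqo1 on day 2, adjusted p = 0.218, limma). From day 0 to day 2, 1 member was called with only the groups compared, and 1 to 3 without 1 array. From day 2 to day 3, 1 was called with the mean of probe sets and without day 3 replicate 3 in both arms, and 0 to 1 without 1 array; from day 3 to day 5 and day 0 to day 5 the ranges were 4 to 5 and 5 to 6, and the mean of probe sets gave 7 and 6. Fitting only the groups compared gave 6 for days 3 to 5.

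Differences of the opposite sign came mostly from Srxn1, whose mean over probe sets gave 0.28, 0.01, 0.12 and 0.14 for treatment on days 2, 3, 5 and on average, and -0.09, -0.30 and -0.48 for days 0 to 2, 3 to 5 and 0 to 5. On day 3 Slc7a11 gave 0.02 that way and 0.01 without replicate 3 of both arms; Gsr gave -0.11 for days 0 to 2 that way, and -0.07 for days 2 to 3 after quantile normalisation again. Without 1 array or pair, signs also changed within the ranges -0.23 to 0.01 (Srxn1) and -0.07 to 0.11 (Slc7a11; 0.14 without 1 pair) for treatment on day 2, and -0.04 to 0.41 (Nqo1), -0.26 to 0.10 (Hmox1), -0.06 to 0.19 (Gclc), -0.16 to 0.56 (Gclm), -0.12 to 0.07 (Srxn1) and -0.07 to 0.05 (Slc7a11) on day 3. For days 0 to 2 the ranges were -0.55 to 0.01 (Hmox1), -0.05 to 0.18 (Srxn1) and -0.03 to 0.07 (Fth1), and for days 2 to 3 -0.24 to 0.01 (Gclc), -0.14 to 0.07 (Txnrd1) and -0.14 to 0.04 (Srxn1). For Srxn1 they were -0.05 to 0.19 for days 3 to 5 and -0.03 to 0.22 for days 0 to 5. With all arrays and the brightest probe set none of these was called, but Srxn1's mean over probe sets was, with adjusted p = 0.0338 for days 3 to 5 and 0.000616 for days 0 to 5 (limma). Of 604 other values of single members, 570 kept direction and side of the threshold, 21 passed it newly, 2 lost it and 11 changed sign; leaving out arrays or pairs gave 612, 49, 8 and 33 of 702. The causes were not tested. Fits of only the groups compared, without an intensity trend or with dim genes (mean of 5 or less) left out were also made. The block over all probe sets, the block with quantile normalisation or without a pair, and the fits without day 3 replicate 3 in both arms were chosen after seeing the data. Slc7a11 is limited by its low signal.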
